A study of Mus musculus with 10 samples.

Results

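The insulin-like growth factor (IGF) axis was followed in mouse bladder RNA through 9 genes taken by name from the 55536 genes of the deposited counts. They are the ligand *Igf1*, the receptors *Igf1r* and *Igf2r*, and the binding proteins *Igfbp2*, *Igfbp3*, *Igfbp4*, *Igfbp5*, *Igfbp6* and *Igfbp7*. Membership was set by gene name, with no threshold on a measured value but with earlier results of these data known. All 9 passed the filter on low counts in every comparison. Other genes of the family, such as *Igf2* and *Igfbp1*, were placed among the pathway genes. The study asked what is lost in the bladder when either of a pair of secreted proteoglycans, osteomodulin (OMD) or PRELP, is absent. RNA-seq was made from C57BL/6 mice of 3 genotypes, with 4 *WT* libraries, 3 *OMD*-/- libraries and 3 *PRELP*-/- libraries, the last spelled PRLEP-/- in the genotype label. Both mutants are constitutive knockouts, so the gene is absent from every cell of the animal and not from the bladder alone, and β-galactosidase was placed under the promoter of the deleted gene. Neither sex nor age is given for any library. The sample records describe homogenised bladder tissue, whereas the text of the study speaks of isolated bladder epithelia, and nothing says whether mice were pooled. The group sizes are those of the deposited libraries, which for *WT* and *OMD*-/- differ from those in the text of the study.

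IGF1 is a small secreted growth factor that binds the receptor tyrosine kinase IGF1R and signals through the IRS adaptors to PI3K, Akt and mTOR, which favours growth and survival and keeps FoxO transcription factors out of the nucleus. IGF2R, the cation-independent mannose 6-phosphate receptor, carries IGF2 and lysosomal enzymes to lysosomes and does not signal growth. The binding proteins hold IGFs in the extracellular space. They can withhold the ligand or prolong its life, and proteases such as PAPP-A release it by cutting them. Much of the circulating IGF1 comes from the liver, so a transcript level in the bladder describes local production only.

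The 10 libraries held 20391437 to 46269079 counts. Of the targeted genes, *Prelp* ranged from 215 to 317 CPM (counts scaled to library size, with TMM factors over all 10 libraries) in *WT*, from 772 to 826 CPM in *OMD*-/- and from 1.84 to 4.20 CPM in *PRELP*-/-. *Omd* was at 0 to 12 counts in *WT* and 0 counts in *OMD*-/-, so it gave little check of that genotype. Several libraries stood apart from their group. For replicate 1 of *PRELP*-/-, the median log2 difference from replicates 2 and 3 was 0.54 over the shortest of 3 equal classes of genes by exon length and -0.48 over the longest. Replicates 1 and 2 of *WT* had 163 to 189 CPM of 4 Y-linked genes, replicates 3 and 4 had 0 to 0.0443 CPM, and *Xist* was at 2.13 to 5.64 CPM in the first pair and 1020 to 1227 CPM in the second. The knockouts had 0.731 to 120 CPM of the Y-linked genes and 0.398 to 88.8 CPM of *Xist*. These differences were not balanced between genotypes, and their part in the results below was not tested except where a value without the library is given. The labelled tissue showed its markers, with 7317 to 18910 CPM of 5 umbrella cell genes, but also 8159 to 21302 CPM of 7 fibroblast genes, and each of 4 adipose markers had at most 3 counts in any library. In bulk RNA, fewer cells of a type and less RNA per cell cannot be told apart.

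Levels of different genes were compared per length, as TPM (counts divided by the length of the gene's annotated exons and scaled to a fixed total). *Igfbp2* was the most abundant of the 9 in *WT* bladder, at 1704 ± 101 TPM (SD, n = 4). *Igfbp7*, a distant relative of the classical binding proteins with low affinity for IGFs, followed at 1143 ± 189 TPM. These 2 genes ranked 53 and 83 among 29833 genes with a count in *WT*. *Igfbp6*, whose product prefers IGF2 over IGF1, came next at 187 ± 15.6 TPM. *Igfbp5* (103 ± 19.6 TPM), *Igfbp4* (89.9 ± 21.6 TPM), *Igf2r* (66.7 ± 13.8 TPM) and *Igfbp3* (65.2 ± 16.7 TPM) followed, and each of these overlapped its neighbour in that order between libraries. *Igf1r* stood lower at 30.0 ± 5.77 TPM, and *Igf1* was the lowest at 5.13 ± 1.35 TPM. With the longest transcript as the length, *Igfbp4* (80.4 TPM) and *Igfbp5* (80.2 TPM) changed places, as did *Igfbp3* (65.4 TPM) and *Igf2r* (54.2 TPM). Summed over the 6 binding proteins, there were 469 to 920 times as many TPM as of *Igf1* in the *WT* libraries, 461 to 864 times in *OMD*-/- and 528 to 1041 times in *PRELP*-/-, and these ranges overlapped.

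**Figure D1:**
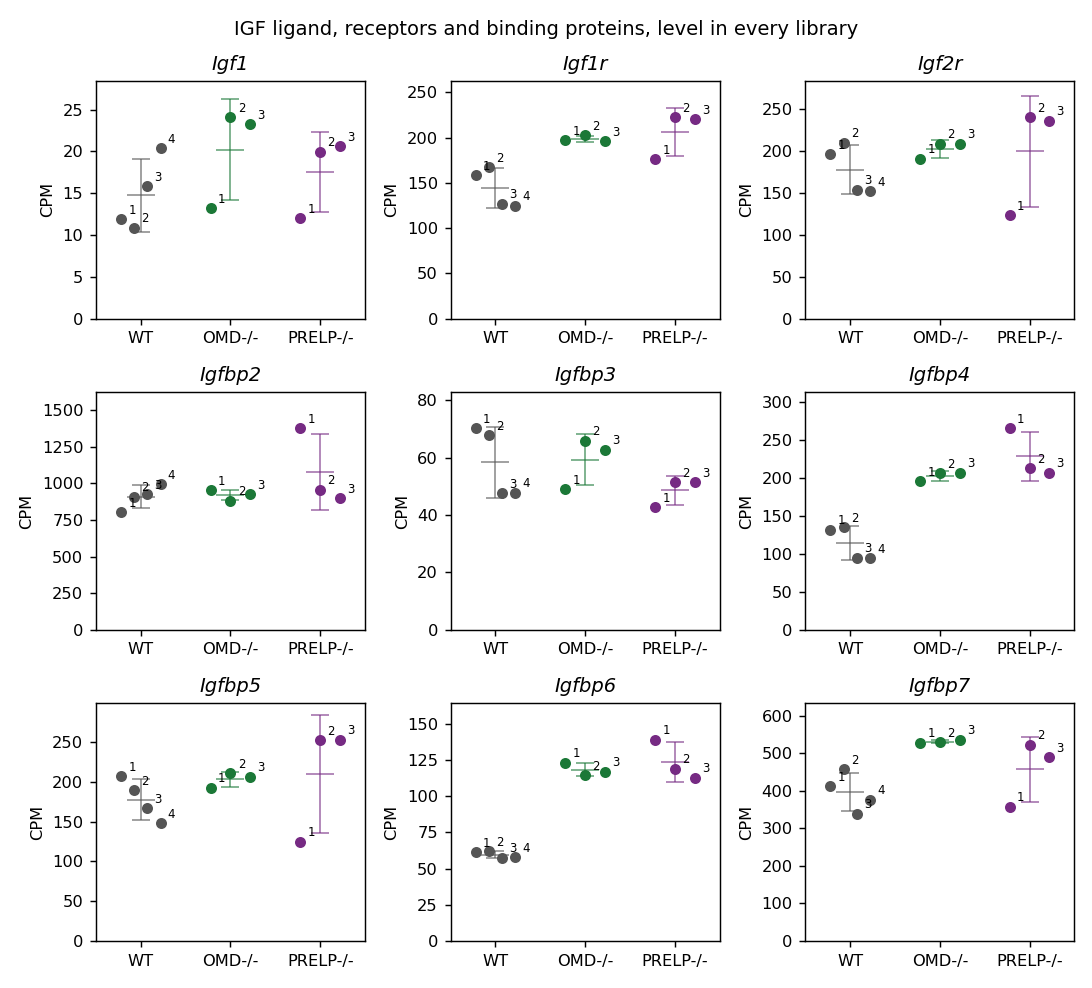
CPM (TMM-scaled) of each gene in each library by genotype, with the replicate number beside each point; the bars show the mean and SD of 4 *WT*, 3 *OMD*-/- and 3 *PRELP*-/- libraries, and every axis starts at 0. *Igfbp4* and *Igfbp6* lie above every *WT* library in all 6 knockout libraries, and *PRELP*-/- replicate 1 lies away from replicates 2 and 3 for most genes.

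Loss of OMD was accompanied by higher RNA of 3 binding proteins and of the signalling receptor. *Igfbp6* was 1.98-fold, *Igfbp4* 1.78-fold, *Igf1r* 1.38-fold and *Igfbp7* 1.34-fold the *WT* level in *OMD*-/-, and none of the 9 genes was called lower (edgeR quasi-likelihood test, adjusted over all genes tested). So 4 of 9 rose, where 29.4% of all 16647 genes tested were called in either direction, 14.3% higher and 15.1% lower. The same 4 genes were those past an unadjusted p of 0.05, as were 6882 of all 16647 genes (edgeR), and DESeq2 also called 4. In CPM their groups did not overlap between libraries, which held for 19.2% of all genes in the higher direction and 19.7% in the lower. The median log2 fold change of the 9 genes was 0.42, beside -0.00 for all genes tested. With PRELP absent, 2 of the 9 rose, *Igfbp6* 2.04-fold and *Igfbp4* 1.97-fold, where 7.29% of 16581 genes were called, 1.4% higher and 5.89% lower. None was called lower. The edgeR test gave 3 genes past an unadjusted p of 0.05, beside 4426 of all 16581 genes, and DESeq2 called 3. In CPM the groups did not overlap for 3 of the 9, all higher, beside 13.6% of all genes higher and 16.4% lower. The median log2 fold change of the 9 genes was 0.23 here, beside 0.02 for all genes. With 9 genes, these counts lie few genes away from the shares of all genes. Both comparisons used the same 4 *WT* libraries. Scaling by library size alone moved the median log2 fold change of all genes to -0.16 in *OMD*-/- and -0.20 in *PRELP*-/-, and the share of calls that were higher from 48.5% to 22.7% and from 19.2% to 3.10%. Under it *Igfbp4* and *Igfbp6* kept their calls in both comparisons, *Igf1r* and *Igfbp7* lost theirs in *OMD*-/- (edgeR, adjusted p = 0.0512 and 0.0644), and small values turned negative for *Igfbp2* and *Igfbp3* in *OMD*-/- and for *Igf2r*, *Igfbp2* and *Igfbp7* in *PRELP*-/-. Nothing in the records says that libraries of a genotype came from separate animals, so the p-values measure the spread between these libraries only.

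**Figure D2:**
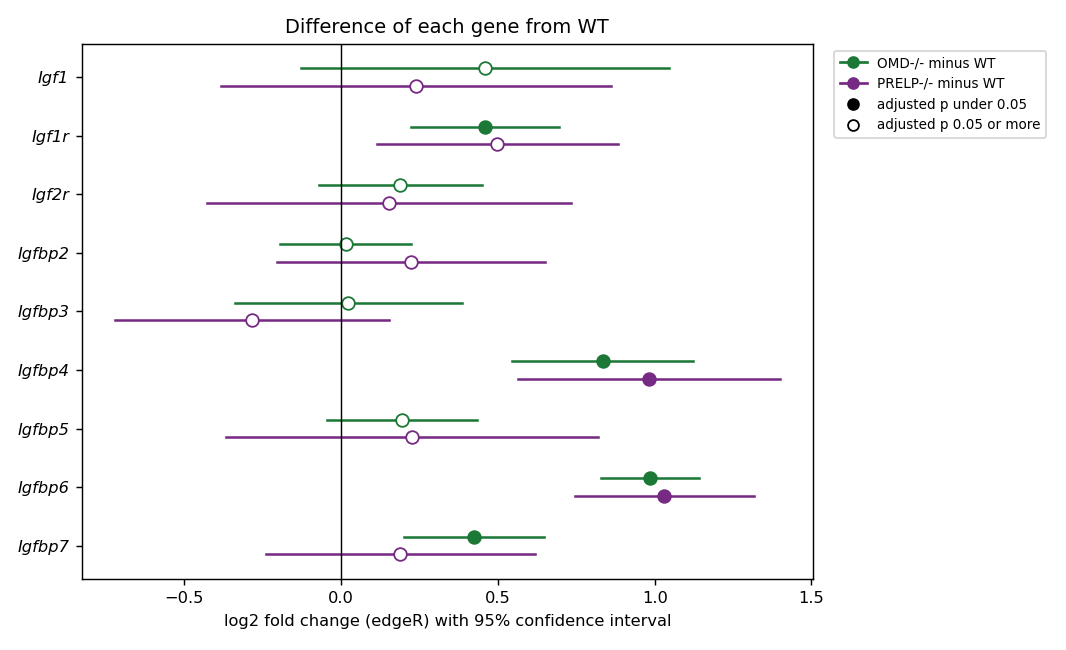
Log2 fold change of each gene against *WT* with its 95% confidence interval from edgeR, green for *OMD*-/- and purple for *PRELP*-/-, filled where the adjusted p was under 0.05. *Igfbp4* and *Igfbp6* are filled in both comparisons at 0.83 to 1.03, and *Igf1r* and *Igfbp7* are filled for *OMD*-/- alone; the difference between the knockouts did not pass the test for any of the 9 genes.

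*Igf1*, the ligand, is encoded on chromosome 10 (GRCm38, 87858265 to 87937042, plus strand). Its level was 11.9, 10.9, 15.9 and 20.4 CPM in *WT* replicates 1 to 4. It reached 13.2, 24.1 and 23.3 CPM in *OMD*-/- and 12.0, 20.0 and 20.6 CPM in *PRELP*-/-. The genotypes overlapped: replicate 1 of each knockout lay among the *WT* libraries, and the other knockout libraries lay near or above the highest of them. Against *WT* the log2 fold change was 0.46 ± 0.26 (SE) in *OMD*-/- (edgeR, adjusted p = 0.216) and 0.24 ± 0.27 in *PRELP*-/- (edgeR, adjusted p = 0.609). With 211 to 595 counts per library this was the least deeply covered of the 9 genes, and intervals of -0.13 to 1.05 and -0.38 to 0.86 do not exclude a change of the size seen for the receptor. An antisense gene, *Igf1os*, overlaps the locus and had at most 1 count in any library.

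*Igf1r*, the receptor tyrosine kinase through which IGF1 signals, lies on chromosome 7 (67952827 to 68233668, plus strand). Its *WT* levels were 159, 167, 127 and 125 CPM. The receptor was at 197, 203 and 196 CPM in *OMD*-/- and at 176, 222 and 220.2 CPM in *PRELP*-/-. Every knockout library was above every *WT* library in CPM. As TPM the *OMD*-/- libraries were at 33.3 to 39.2 and overlapped *WT*, at 24.9 to 35.3. On that scale replicate 1 of *PRELP*-/- was the lowest of all libraries, and replicates 2 and 3, at 40.3 and 41.1 TPM, were above *WT*. The rise in *OMD*-/- was 0.46 ± 0.11 on the log2 scale (edgeR, adjusted p = 0.00917). That call held under 16 of 19 alternatives and was lost with close pairs of libraries summed (edgeR, adjusted p = 0.0906). The log2 fold change in *PRELP*-/- was of a like size, 0.50 ± 0.17, with a wider spread, and missed the threshold (edgeR, adjusted p = 0.108). Without *PRELP*-/- replicate 1 it was 0.63 (edgeR, adjusted p = 0.00927), and DESeq2 on all 7 libraries gave an adjusted p of 0.0477.

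*Igf2r*, the clearance and lysosomal sorting receptor, is an imprinted gene on chromosome 17 (12682406 to 12769664, minus strand). It was at 196, 209.9, 154 and 152 CPM in *WT*, at 191, 209 and 209 CPM in *OMD*-/- and at 123, 240.4 and 236 CPM in *PRELP*-/-. The lowest and the highest values of all were both from *PRELP*-/-. The log2 fold change was 0.19 ± 0.12 in *OMD*-/- (edgeR, adjusted p = 0.255) and 0.15 ± 0.25 in *PRELP*-/- (edgeR, adjusted p = 0.734), so neither difference was larger than the spread. *Airn*, the antisense RNA of this locus, shares no exon bases with *Igf2r* and averaged 7.53 CPM.

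Among the binding proteins, *Igfbp6* separated the genotypes most widely relative to its spread. It lies on chromosome 15 (102144362 to 102149511, plus strand). The *WT* libraries held 61.4, 61.9, 57.7 and 57.9 CPM, a narrow range. The *OMD*-/- libraries held 123, 115 and 117 CPM and the *PRELP*-/- libraries 139, 119 and 113 CPM. The lowest knockout library was far above the highest *WT* library. *Igfbp6* rose by a log2 fold change of 0.98 ± 0.07 in *OMD*-/- (95% interval 0.83 to 1.14, edgeR, adjusted p = 9.77e-06) and 1.03 ± 0.13 in *PRELP*-/- (0.75 to 1.32, edgeR, adjusted p = 0.00275). The call held in both comparisons whichever single library was left out, with log2 fold changes of 0.97 to 1.01 and 0.97 to 1.09. The call in *PRELP*-/- was lost when only *WT* replicates 1 and 2 were kept (0.98, edgeR, adjusted p = 0.0955) and when close pairs of libraries were summed (1.07, edgeR, adjusted p = 0.301).

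*Igfbp4*, which encodes an inhibitor of IGF action that PAPP-A cleaves, lies on chromosome 11 (99041244 to 99054392, plus strand). It was at 131, 135, 94.6 and 94.1 CPM in *WT*. All knockout libraries were higher, at 195, 206 and 207 CPM in *OMD*-/- and 265, 213 and 207 CPM in *PRELP*-/-. *WT* replicates 1 and 2 were 1.41 times as high as replicates 3 and 4, a gap smaller than that to the nearest knockout library. The log2 fold change was 0.83 ± 0.13 in *OMD*-/- (edgeR, adjusted p = 0.0012) and 0.98 ± 0.18 in *PRELP*-/- (edgeR, adjusted p = 0.0167). Without *WT* replicate 3 the call in *PRELP*-/- was lost (edgeR, adjusted p = 0.062), as it was without replicate 4 (edgeR, adjusted p = 0.0563), with log2 fold changes of 0.90 and 0.89. It was also lost against *WT* replicates 1 and 2 alone (0.75, edgeR, adjusted p = 0.171) and with close pairs of libraries summed (1.03, edgeR, adjusted p = 0.384).

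*Igfbp7*, whose product is secreted into the matrix and around vessels, lies on chromosome 5 (77349240 to 77408041, minus strand). *WT* libraries ranged over 412, 458, 339 and 377 CPM. The *OMD*-/- libraries lay close together at 529, 529 and 537 CPM, all above *WT*. As TPM they were at 1244 to 1422 and overlapped *WT*, at 924 to 1343. The *PRELP*-/- libraries were spread over 358, 523 and 491 CPM, with replicate 1 inside the *WT* range and the others above it. Its rise in *OMD*-/- was 0.42 ± 0.10 on the log2 scale (edgeR, adjusted p = 0.0106). That call held under 16 of 19 alternatives and was lost with close pairs of libraries summed (edgeR, adjusted p = 0.125). The log2 fold change in *PRELP*-/- was 0.19 ± 0.19 (edgeR, adjusted p = 0.554), and without replicate 1 it was 0.37 (edgeR, adjusted p = 0.0495). The gene shares 85 exon bases with *Polr2b* on the other strand, which averaged 106 CPM, and overlaps *Gm34648*, which had at most 3 counts in any library. Since the strand setting of the counting is not given, reads there cannot be assigned with certainty.

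*Igfbp2*, the most abundant of the family, and *Igfbp5* are neighbours on chromosome 1, tail to tail and 5457 bases apart (72824503 to 72852474, plus strand, and 72857932 to 72874884, minus strand). *Igfbp2* was at 805, 909, 925 and 997 CPM in *WT*, at 952, 882 and 924 CPM in *OMD*-/- and at 1376, 956 and 899 CPM in *PRELP*-/-. Only replicate 1 of *PRELP*-/- left the *WT* range upwards. Its log2 fold change was 0.02 ± 0.09 in *OMD*-/- (95% interval -0.19 to 0.22, edgeR, adjusted p = 0.924) and 0.22 ± 0.19 in *PRELP*-/- (edgeR, adjusted p = 0.479). *Igfbp5*, which binds to extracellular matrix, was at 207, 189.8, 167 and 148 CPM in *WT*, 193, 211 and 206 CPM in *OMD*-/- and 125, 252 and 253 CPM in *PRELP*-/-. Here replicate 1 of *PRELP*-/- was the lowest of all libraries and replicates 2 and 3 the highest. The log2 fold changes were 0.19 ± 0.11 (edgeR, adjusted p = 0.206) and 0.23 ± 0.26 (edgeR, adjusted p = 0.613). Without *PRELP*-/- replicate 1 the second became 0.52 (edgeR, adjusted p = 0.0181). Over the 10 libraries the log2 CPM of these neighbours had a Pearson r of -0.72, a description that *PRELP*-/- replicate 1, high in one and low in the other, takes part in.

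*Igfbp3*, the main carrier of IGFs in blood, lies on chromosome 11 (7206086 to 7213923, minus strand), 3539 bases from *Igfbp1*. It was at 70.2, 67.8, 47.6 and 47.8 CPM in *WT*, 49.1, 65.9 and 62.8 CPM in *OMD*-/- and 42.7, 51.5 and 51.5 CPM in *PRELP*-/-. The *WT* replicates fell into a higher and a lower pair, and most knockout libraries lay between them. It was the only one of the 9 genes with a negative log2 fold change in *PRELP*-/-, -0.28 ± 0.19 (edgeR, adjusted p = 0.37), and this difference was within the spread. That in *OMD*-/- was 0.02 ± 0.16 (edgeR, adjusted p = 0.934).

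Across the *WT* libraries, replicates 1 and 2, those with Y-linked reads, were above replicates 3 and 4 for 7 of the 9 genes, by 1.07 times for *Igfbp6* up to 1.45 times for *Igfbp3*. *Igf1* went the other way, 1.59 times as high in replicates 3 and 4, and so did *Igfbp2* at 1.12 times. Against replicates 1 and 2 alone, 5 of the 9 genes were called in *OMD*-/- and 0 in *PRELP*-/-. Against replicates 3 and 4 alone, 6 and 2 were called. Over the 3 *PRELP*-/- libraries, replicate 1 was below the mean of replicates 2 and 3 for the 4 genes in the longest class by exon length, by log2 differences of -1.02 for *Igfbp5*, -0.95 for *Igf2r*, -0.76 for *Igf1* and -0.33 for *Igf1r*. It was above for *Igfbp2* (0.57) and *Igfbp6* (0.26), which are in the shortest class, but below for *Igfbp7* (-0.50), which is in that class too. *Igfbp4* (0.34) and *Igfbp3* (-0.27) have middle lengths. The part of length in these differences was not tested. Leaving out replicate 1 raised the number of the 9 genes called in *PRELP*-/- from 2 to 5, namely *Igf1r*, *Igfbp4*, *Igfbp5*, *Igfbp6* and *Igfbp7*, while the number over all genes went from 1209 to 3807.

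The makeup of the binding protein RNA shifted with these changes. As a share of the summed TPM of the 6 binding proteins, *Igfbp6* took 5.67% ± 0.274 (SD, n = 4) in *WT*, 9.30% ± 0.248 (n = 3) in *OMD*-/- and 9.46% ± 0.415 (n = 3) in *PRELP*-/-. *Igfbp4* took 2.71% ± 0.493, 4.02% ± 0.174 and 4.38% ± 0.33. For both, the knockout libraries did not overlap the *WT* libraries. *Igfbp2* still made up the largest share, 52.0% ± 4.53 in *WT*, 43.6% ± 1.01 in *OMD*-/- and 49.3% ± 8.52 in *PRELP*-/-, and *Igfbp7* the next, 34.5% ± 3.22, 38.5% ± 0.612 and 32.5% ± 7.84. *Igfbp5* stayed at 2.96% to 3.13% on average in all genotypes and *Igfbp3* at 1.33% to 1.97%. Shares sum to a fixed total, so a gain of one lowers the others, and no test was made of them.

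**Figure D3:**
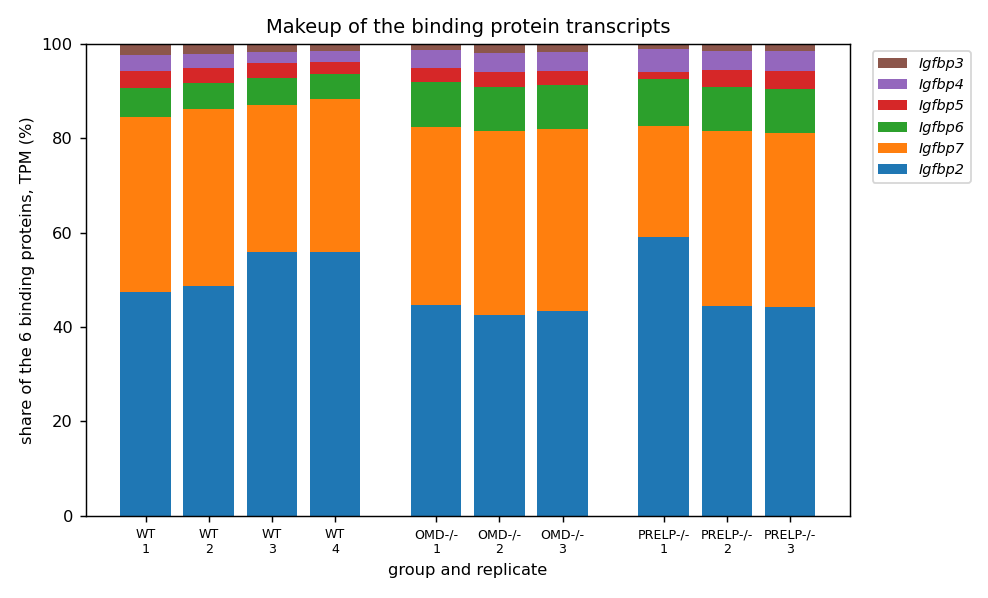
Share of each binding protein in the summed TPM of all 6, as stacked bars for the 10 libraries. *Igfbp2* and *Igfbp7* fill most of every bar, and the *Igfbp6* band is 5.39% to 6.00% in *WT* and 9.13% to 9.94% in the knockouts.

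*Igfbp4* and *Igfbp6* were the 2 genes called in both comparisons, and over the 10 libraries their log2 CPM had a Pearson r of 0.96, a description over libraries that share genotypes. For this reason the bases just before their RefSeq transcription starts (GRCm38.p6) are shown, 250 bases each, 5′ to 3′ on the strand of the gene. The *Igfbp4* sequence is chr11:99040994-99041243 and the *Igfbp6* sequence is chr15:102143936-102144185, both plus strand. In the annotation used for the counts *Igfbp4* starts at 99041244, the next base, but *Igfbp6* starts farther on, at 102144362. These stretches therefore lie at unlike distances from the annotated gene starts. Capitals mark matches to the TATA box letters TATAAA on either strand, and no match was found in them to the GC box GGGCGG or to the FoxO motif TGTTTAC.
Igfbp4: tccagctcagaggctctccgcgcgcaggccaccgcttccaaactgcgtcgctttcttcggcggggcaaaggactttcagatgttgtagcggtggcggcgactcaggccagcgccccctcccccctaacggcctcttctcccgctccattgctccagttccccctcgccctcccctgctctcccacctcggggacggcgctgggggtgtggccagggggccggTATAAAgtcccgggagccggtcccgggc
Igfbp6: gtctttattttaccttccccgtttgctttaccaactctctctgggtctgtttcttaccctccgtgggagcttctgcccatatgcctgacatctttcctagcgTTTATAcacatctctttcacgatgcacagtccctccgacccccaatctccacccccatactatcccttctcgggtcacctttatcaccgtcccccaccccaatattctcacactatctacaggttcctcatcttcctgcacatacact

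The *Igfbp4* match runs in the direction of the gene from 28 to 23 bases before the RefSeq start. That of *Igfbp6* is on the opposite strand, 148 to 143 bases before its RefSeq start. The stretches differ in base composition, with a GC content of 69.2% in *Igfbp4* and 49.6% in *Igfbp6*. All 9 genes had an entry, 10 in all because *Igfbp2* has 2. None of the other 8 entries held the TATA box letters, and none of the 10 held the FoxO motif. The GC box was found in those of *Igf1r*, *Igf2r*, *Igfbp7* and 1 of the *Igfbp2* entries. Over 32851 such stretches of the genome, 12.4% held the TATA box letters, 32.7% the GC box and 3.17% the FoxO motif on either strand. No match overlapped another. These matches are a description of the letters and not of bound factors.

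The direct comparison of *PRELP*-/- with *OMD*-/- called 0 of the 9 genes, where 0.00633% of 15805 genes were called, namely *Prelp*. None of the 9 passed an unadjusted p of 0.05 by edgeR, DESeq2 called 0, and limma-voom with sample quality weights called 1, *Igfbp5* (log2 fold change 0.28, adjusted p = 0.0413). The intervals were wide: for *Igfbp6* the log2 difference was 0.06 (95% interval -0.25 to 0.37), for *Igfbp4* 0.16 (-0.18 to 0.50), for *Igf1r* 0.05 (-0.31 to 0.41) and for *Igfbp5* 0.05 (-0.63 to 0.72). Differences between the knockouts within those intervals are not excluded. *Igfbp7* was the one gene whose knockout groups did not overlap in CPM, lower in *PRELP*-/- (-0.22, 95% interval -0.68 to 0.24, edgeR, adjusted p = 0.691). That was 1 of 9 where 8.72% of all genes did so in the lower direction and 6.38% in the higher.

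Other genes of the pathway were taken as 43 genes in 6 lists, of which 40 passed the filter on low counts. In *OMD*-/- 9 of the 40 were called, 6 higher and 3 lower, beside 29.4% of all genes, with a median log2 fold change of 0.14. For *PRELP*-/- 1 was called, lower, beside 7.29% of all genes, and 8 passed an unadjusted p of 0.05, beside 4426 of all 16581 genes. Both shares of calls were below those of all genes.

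Proteases that cut the binding proteins had the highest fold changes of the lists in *OMD*-/-. *Pappa*, which encodes the PAPP-A protease of IGFBP4, rose from 8.64 ± 3.89 CPM in *WT* (SD, n = 4) to 26.9 ± 4.56 CPM in *OMD*-/- (n = 3), a log2 fold change of 1.63 ± 0.31 (edgeR, adjusted p = 0.00513). *Htra1*, a secreted serine protease with IGF binding proteins among its substrates, rose from 191 ± 17.6 to 412 ± 32.9 CPM, 1.11 ± 0.10 on the log2 scale (edgeR, adjusted p = 3.22e-05). The log2 fold change of *Pappa* in *PRELP*-/- was 0.75 ± 0.45 (edgeR, adjusted p = 0.318), at 6.25, 19.1 and 18.8 CPM in replicates 1 to 3. *Htra1* was at 183, 366 and 353 CPM in those libraries. In *WT* replicates 1 to 4 *Pappa* was at 12.1, 11.9, 5.10 and 5.45 CPM. The call of *Pappa* in *OMD*-/- held under 17 of 19 alternatives and was lost with close pairs of libraries summed (edgeR, adjusted p = 0.115). So 2 of the 6 genes of that list, which also holds *Pappa2*, *Stc1*, *Stc2* and *Adam12*, rose in *OMD*-/-, beside 14.3% of all genes, and 0 were called in *PRELP*-/- (edgeR). There 3 passed an unadjusted p of 0.05, as did 4426 of all 16581 genes, with log2 fold changes of -1.07 for *Pappa2*, -1.03 for *Stc1* and 0.64 for *Htra1*. Between the knockouts the log2 difference of *Pappa* was -0.87 and that of *Htra1* -0.46 (*PRELP*-/- minus *OMD*-/-, edgeR, adjusted p = 0.69 for each), lower in every *PRELP*-/- library.

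Of the other ligands, receptors and carriers, *Igf2*, the second ligand and an imprinted gene, was at 3.43 ± 1.22 CPM in *WT*, 3.80 ± 1.46 CPM in *OMD*-/- and 5.18 ± 0.224 CPM in *PRELP*-/-. Its log2 fold changes were 0.14 (edgeR, adjusted p = 0.786) and 0.56 (edgeR, adjusted p = 0.253). *Insr*, the insulin receptor, was at 95.1 ± 15.8, 111 ± 7.88 and 87.2 ± 39.6 CPM, and *Insrr*, its orphan relative, at 0.544 ± 0.15, 0.73 ± 0.276 and 0.34 ± 0.184 CPM. None of these 3 was called, and none passed an unadjusted p of 0.05 against *WT*. *Igfals*, the acid-labile subunit of the circulating complex, had 0 to 6 counts per library, *Igfbpl1* 0 to 2 and *Igfbp1*, a liver binding protein, 0 to 1, so these were not tested.

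Downstream of the receptors, *Foxo1* and *Foxo3*, transcription factors that Akt restrains, rose in *OMD*-/- by 0.62 ± 0.09 and 0.59 ± 0.09 on the log2 scale (edgeR, adjusted p = 0.000874 and 0.000864). They were 2 of the 3 FoxO genes of the list, beside 14.3% of all genes called higher, and *Foxo4* was not called. *Akt2*, a kinase of the insulin and IGF response, rose from 75.8 ± 5.66 to 102 ± 3.43 CPM, and *Tsc2*, a brake on mTOR complex 1, from 100.3 ± 13.3 to 135 ± 4.43 CPM (edgeR, adjusted p = 0.0029 and 0.00869). Another 3 genes of the PI3K, Akt and mTOR list fell. In *OMD*-/- this made 5 of its 17 genes called, no more than the 29.4% of all genes. *Rps6kb1*, which encodes the S6 kinase that mTOR complex 1 activates, went from 57.6 ± 3.63 CPM in *WT* to 38.2 ± 3.34 CPM in *OMD*-/- and 39.6 ± 2.22 CPM in *PRELP*-/-, with log2 fold changes of -0.59 ± 0.09 (edgeR, adjusted p = 0.00119) and -0.56 ± 0.13 (edgeR, adjusted p = 0.0329). *Rictor*, of mTOR complex 2, fell by 0.42 on the log2 scale in *OMD*-/- (edgeR, adjusted p = 0.0195) and *Rheb*, the activator of mTOR complex 1, fell by 0.37 (edgeR, adjusted p = 0.0307). The call of *Rheb* was lost without *WT* replicate 3 or 4 or *OMD*-/- replicate 2 or 3 (edgeR, adjusted p = 0.058 to 0.14). That of *Rictor* was lost without *OMD*-/- replicate 1 or 3 (edgeR, adjusted p = 0.0729 and 0.0795). *Rps6kb1* in *PRELP*-/- kept its call without *PRELP*-/- replicate 1 and lost it without any other single library (edgeR, adjusted p = 0.0734 to 0.105). Of the 5 growth hormone axis genes and the 6 receptor adaptors, 0 were called in either knockout by edgeR. In *OMD*-/- 1 and 3 of them passed an unadjusted p of 0.05, beside 6882 of all 16647 genes. In *PRELP*-/- 0 and 0 did, beside 4426 of all 16581 genes.

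**Figure D4:**
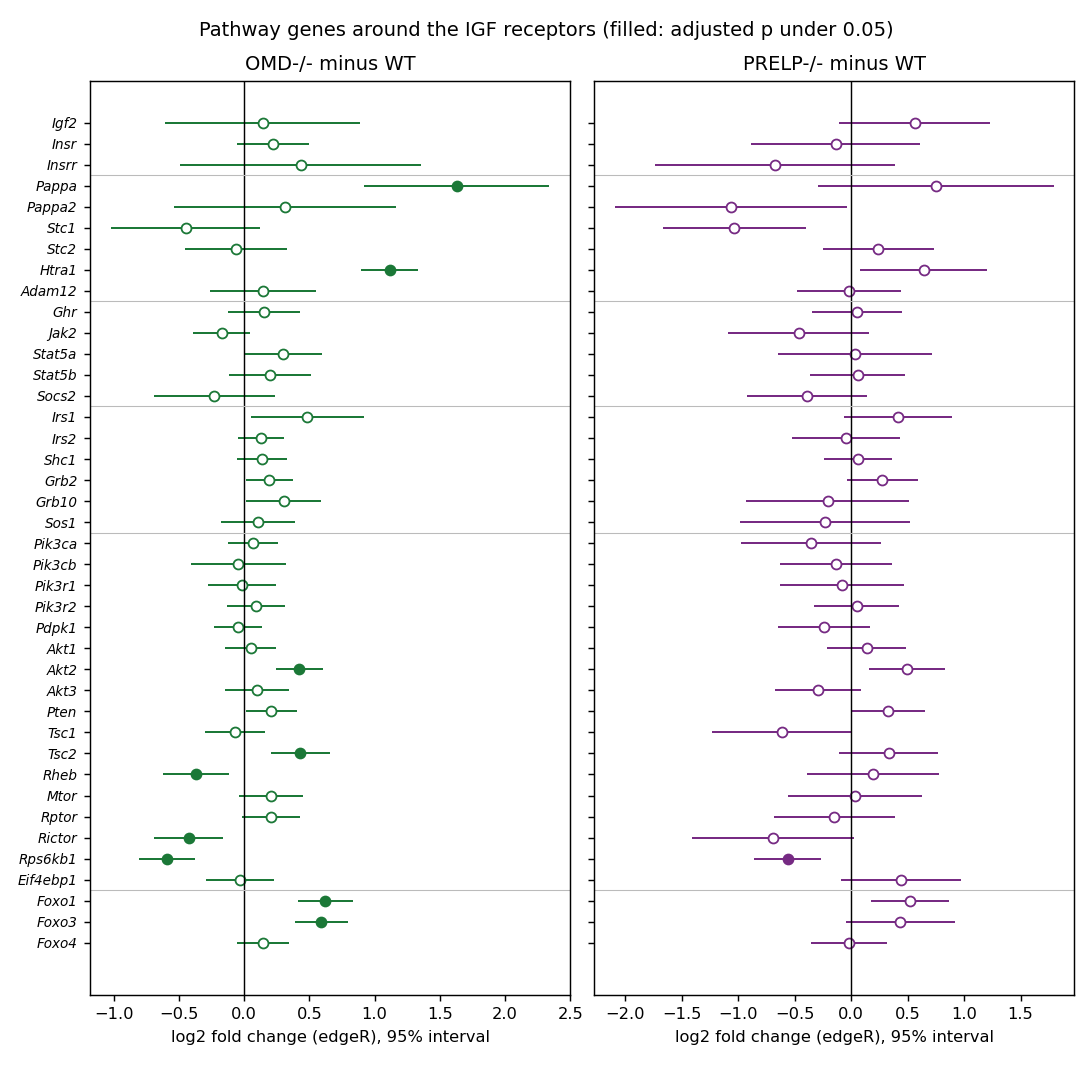
Log2 fold change against *WT* with the 95% confidence interval (edgeR) of the 40 pathway genes tested, *OMD*-/- at left and *PRELP*-/- at right, in 6 lists divided by grey lines and filled where the adjusted p was under 0.05; the horizontal scales differ. *Pappa* (1.63) and *Htra1* (1.11) are farthest to the right among filled points, *Rps6kb1* is filled on the left side in both, and the intervals of *PRELP*-/- are wider.

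Most fibroblast markers were higher in the knockouts too. The summed level of 7 fibroblast genes was 8159 to 9320 CPM in *WT*, 17470 to 21302 CPM in *OMD*-/- and 9865 to 19366 CPM in *PRELP*-/-. Of the 7, 4 were called higher in *OMD*-/- and 2 in *PRELP*-/-, beside 14.3% and 1.4% of all genes, and none was called lower. They did not all go the same way. In *OMD*-/- 6 of the 7 had a positive log2 fold change (-0.66 to 1.58) and in *PRELP*-/- 5 of the 7 (-1.42 to 1.31). The part of these markers in the rises of the binding proteins was not tested. For replicate 1 of *PRELP*-/- the fibroblast sum was 9865 CPM, near *WT*, and *Igfbp4* and *Igfbp6* were at 265 and 139 CPM, the highest of all 10 libraries on that scale. As TPM the 2 genes were at 120 and 251 in this library, above every *WT* library but the lowest of the knockout libraries. The other knockout libraries were at 126 to 152 TPM of *Igfbp4* and 315 to 336 TPM of *Igfbp6*. This is the library that stood apart by exon length, and it also had 18910 CPM of the 5 umbrella cell markers, against 7317 to 8921 CPM in *WT* and 9326 to 12687 CPM in the other knockout libraries. Of those 5 markers, 2 were called higher in *OMD*-/- and 1 in *PRELP*-/-, beside 14.3% and 1.4% of all genes. The 6 endothelial markers summed to 177 to 400.4 CPM in *WT*, 462 to 546 CPM in *OMD*-/- and 308 to 525 CPM in *PRELP*-/-, with 0 of 6 called in either (edgeR). Of the 6, 5 and 1 passed an unadjusted p of 0.05, as did 6882 of all 16647 and 4426 of all 16581 genes. The 7 smooth muscle markers summed to 309 to 1286 CPM in *WT*, 383 to 808 CPM in *OMD*-/- and 230.2 to 257 CPM in *PRELP*-/-. The 5 leukocyte markers summed to 35.9 to 45.2 CPM in *WT* and to 44.2, 110.1 and 107.6 CPM in *OMD*-/- replicates 1 to 3. Replicate 1 thus lay inside the *WT* range. Of these markers, 3 of 5 were called higher in *OMD*-/-, beside 14.3% of all genes, and 0 in *PRELP*-/-. Of the remaining lists, 1 of the tested basal urothelial genes was called higher in *OMD*-/- and 1 of 4 Schwann cell genes in each comparison, higher in *OMD*-/- and lower in *PRELP*-/-. Of all genes, 14.3% were called higher in *OMD*-/- and 5.89% lower in *PRELP*-/-. Skeletal muscle, mesothelial, hepatocyte and blood lists had 0 calls against *WT*. Blood genes summed to 392 CPM in *PRELP*-/- replicate 1 and 26.2 to 57.7 CPM in the other libraries, and *Alb* and *Lep*, defining genes of hepatocytes and adipose tissue, were at 0.

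**Figure D5:**
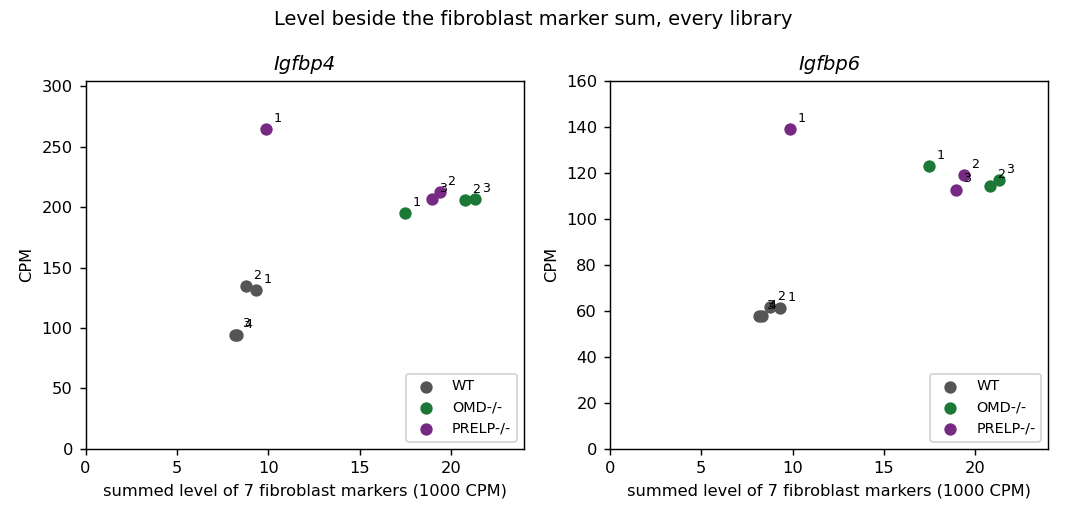
CPM of *Igfbp4* (left) and *Igfbp6* (right) in each of the 10 libraries against the summed CPM of 7 fibroblast markers, with replicate numbers; both axes start at 0. The *WT* libraries are at the lower left and 5 knockout libraries at the upper right. *PRELP*-/- replicate 1, the library that stood apart by exon length, is at a fibroblast sum of 9865 CPM with the highest *Igfbp4* and *Igfbp6* in CPM. As TPM it was the lowest of the knockout libraries for both genes.

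Among themselves the 9 genes fell into few close pairs over the 10 libraries. Beside *Igfbp4* with *Igfbp6*, *Igf2r* and *Igfbp5* had an r of 0.97, and *Igf1r* with *Igfbp4* 0.88. Compared with 11110 other protein-coding genes of at least 5 CPM on average, the pattern most like that of *Igfbp6* was *Qsox1* (r = 0.99), then *Rpn2* (0.99). For *Igfbp4* these were *Dym* (0.99) and *Tnfrsf1a* (0.98), for *Igf1r* *Pacs1* (0.99) and *Pltp* (0.99), and for *Igfbp7* *Khsrp* (0.99) and *St3gal2* (0.98). *Igf2r* was closest to *Mrtfb* (0.99) and *Adgrl2* (0.99), *Igfbp5* to *Parp4* (0.98) and *Zkscan1* (0.98), and *Igfbp2* to *Tspo* (0.99) and *Zmat5* (0.99). *Igf1* was closest to *Vwa5a* (0.92) and *Ndst4* (0.92). These are the highest of many correlations over 10 libraries that share genotype and library effects.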

How the data were processed

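Bladder RNA was measured by poly(A)-selected, strand-specific RNA-seq with molecular identifiers in the adaptors. The authors deposited 1 raw read count per gene and library, without normalization. The file headers name HISAT2, while the submitters' processing notes list bcl2fastq, STAR 2.5.2b, featureCounts and DESeq2, with builds GRCm38 and hg38. The strand setting, the use of the identifiers and filters are not given in the sources used here. Tables of DESeq2 comparisons by the authors hold fold changes and p-values and were not used. Gene identifiers were matched to GENCODE vM21 (GRCm38), and all 55536 matched.

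Depth was 20391437 to 46269079 counts per library, which sets the counting error of low genes such as *Igf1*. Groups came from the sample titles. Each pair of genotypes was fitted alone, over all genes, with filterByExpr, TMM scaling and edgeR's robust quasi-likelihood test (edgeR 4.0.16, R 4.3.3, two-sided, Benjamini-Hochberg threshold 0.05). Standard errors are the size of the log2 fold change divided by the square root of F. Levels are CPM scaled over all 10 libraries and, between genes, TPM. Fits were checked on simulated counts. Alternatives were DESeq2 (1.42.0), limma-voom (limma 3.58.1), other scalings, no filter, all groups in one fit, a replicate block, covariates for Y-linked reads, the longest transcript as length and each library left out. The 9 genes, the pathway lists and the marker lists were chosen with earlier results of these data known. The text names all 9 genes, the targeted genes, the pathway genes past the threshold (at most 10 a comparison), all genes of the list of other ligands, receptors and carriers, genes overlapping a member, and the 2 genes most like each, which for *Igfbp3* are not reported here. *Xist*, *Pappa* and *Htra1* in the other comparisons, and the uncalled genes of 2 lists were named after their values were seen. Promoter sequences are from RefSeq (GRCm38.p6).

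Close pairs of libraries (*WT* 1 and 2, *WT* 3 and 4, knockout 2 and 3) had a mean chi-square per gene of 3.10 to 11.6. Counting error alone gives about 1, and the other pairs within a group had 24.5 to 223. Separate preparations of the same material can also differ by more than counting error, so these values cannot show whether close pairs are independent. All 10 libraries were counted separately without that being known. Libraries of the same number in the 2 knockouts had a correlation of deviations from group means of 0.303, 0.181 and 0.148 for numbers 1 to 3. Libraries of different numbers were not compared, and replicate 1 lay apart from replicates 2 and 3 in both knockouts. These values therefore cannot show whether the numbers pair the knockouts. Between the knockouts and *WT* the correlations were -0.0998 to 0.137.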

Additional observations from a re-analysis of the deposited data

Results flagged for a closer look

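*Prelp* differed between the knockouts under the same contrast with *WT*. It rose in *OMD*-/- by 1.59 on the log2 scale (807 ± 30.8 CPM against 268 ± 43.4 CPM in *WT*) and was nearly absent in *PRELP*-/- (2.72 ± 1.29 CPM), where it was deleted. The difference of *PRELP*-/- from *OMD*-/- was -8.24 (edgeR, adjusted p = 0.00224). For 22 genes looked at in the 4 *WT* libraries, 0 had a library far from the others, where chance flags about 1 in 20. As these libraries fall into close pairs (1 with 2 and 3 with 4), a single library could hardly be flagged, and no conclusion is drawn.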

How the results depend on the processing

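*Igfbp4* and *Igfbp6* were called in *OMD*-/- under all 19 alternatives. The other calls rested on more choices, and the causes were not tested. Alternatives chosen after seeing the data were the level of 4 Y-linked genes as a covariate, close pairs of libraries summed, and only *WT* replicates 1 and 2 or only 3 and 4.

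Of the 9 genes, 4 were called in *OMD*-/-. The number was 2 with library size scaling, 7 with limma-voom and 2 with close pairs summed, and 4 whichever library was left out. For *PRELP*-/-, where 2 were called, it was 6 with limma-voom, 0 with close pairs summed, 0 against *WT* replicates 1 and 2, and 1 to 5 with a library left out (5 without *PRELP*-/- replicate 1, 1 without *WT* replicate 3 or 4). Of the 40 pathway genes, 9 were called in *OMD*-/-, against 18 with limma-voom, 15 with the Y-linked covariate, 4 with close pairs summed, 18 against *WT* replicates 3 and 4, and 7 to 13 with a library left out. In *PRELP*-/-, where 1 was called, it was 2 with library size scaling, 0 without the filter, 4 with DESeq2, 18 with limma-voom, 4 with all 3 groups in one fit, 0 with the Y-linked covariate, 0 with close pairs summed, 0 against either *WT* pair, and 0 to 8 with a library left out (8 without *PRELP*-/- replicate 1). Between the knockouts, limma-voom called 1 of the 9 and 1 pathway gene. Over all genes, *PRELP*-/- gave 1209 calls, 3807 without replicate 1, 475 to 716 without any other library, 2547 with DESeq2, 6963 with limma-voom, 2485 with 3 groups in one fit, 115 with the block, 908 with the Y-linked covariate, 13 with close pairs summed, and 119 or 453 against a *WT* pair. *OMD*-/- gave 4899 calls, 2485 to 7212 under the other alternatives and 1658 with close pairs summed. The knockouts differed in 1 gene, 88 with DESeq2 and 1010 with limma-voom.

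With the replicate number as a block, the calls in *OMD*-/- were 5 of the 9 genes, and in *PRELP*-/- 0 of the 9 and 0 pathway genes (edgeR, adjusted p = 0.139 for *Igfbp4* and 0.0915 for *Igfbp6*). Those libraries share only a number with *WT*. Between the knockouts, where pairing by number was not shown either, the block gave 0 of the 9 and 43 genes in all, and changed no call reported here.

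Some uncalled log2 fold changes turned sign. With library size scaling, *Igfbp2* was -0.15 and *Igfbp3* -0.14 in *OMD*-/-. There *Igfbp2* was -0.026 with limma-voom, -0.017 with the Y-linked covariate, -0.064 against *WT* replicates 3 and 4, and -0.041 to 0.060 with a library left out. *Igfbp3* was -0.051 with the block, -0.026 with presence of Y reads as a covariate, -0.031 with close pairs summed, -0.22 against *WT* replicates 1 and 2, and -0.070 to 0.15 with a library left out. *Igf2r* was -0.0025 against *WT* replicates 1 and 2. For *PRELP*-/- with library size scaling, *Igf2r* was -0.048, *Igfbp2* -0.027 and *Igfbp7* -0.024. Against *WT* replicates 3 and 4, *Igf1* was -0.054 and *Igfbp3* 0.015, and against 1 and 2 *Igf2r* was -0.043. Between the knockouts with the Y-linked covariate, *Igf1* was 0.66, *Igf2r* 0.42, *Igfbp2* -0.086, *Igfbp3* 0.086, *Igfbp6* -0.093 and *Igfbp7* 0.0087. With library size scaling *Igf1r* was -0.017, *Igfbp5* -0.0056 and *Igfbp6* -0.028. *Igf2r* was 0.20 with limma-voom and 0.0030 with presence of Y reads. *Igfbp5* was -0.028 with the block. With close pairs summed *Igf1r* was -0.0090 and *Igfbp5* -0.096. With a library left out the ranges were -0.44 to 0.0043 for *Igf1*, -0.013 to 0.16 for *Igf1r*, -0.18 to 0.23 for *Igf2r*, -0.11 to 0.32 for *Igfbp5* and -0.026 to 0.11 for *Igfbp6*.

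Presence of Y reads was met by nearly all libraries and gave no value for *PRELP*-/- against *WT*. Depth limits *Igf1* most, with 211 to 595 counts per library.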
